A study of Hakea prostrata with 26 samples.

Results

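RNA from field leaves of the Western Australian shrub Hakea prostrata (Proteaceae), a species of soils very poor in phosphorus, was sequenced over the course of leaf growth, and 31 genes stood high at both ends of that course and low in between. These dipping genes were chosen from measured levels of 25047 assembled genes, after the isoforms of each gene had been summed. A level is the stage mean, over 3 libraries, of log2(CPM + 1), where CPM is the estimated count scaled to a common library size with TMM factors (trimmed mean of M values) over all 26 libraries. A gene was eligible when its levels at stages 1 and M were both at least 4 and within 1 of each other, which 4173 genes met. It was a dipping gene when the lower of its stage 1 and stage M levels exceeded the lower of its stage 3 and stage 4 levels by at least 1.5. The 31 genes were 0.743% of the eligible ones, and the mirrored rule for a peak at stage 3 or 4 found 52 genes.

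Leaves of many Proteaceae expand before they turn green, a habit called delayed greening, in which cell growth comes first and chloroplasts are built later. Growth of cells draws on ribosomes in the cytosol, and the greening leaf adds plastid ribosomes and the proteins of photosynthesis. One gene can give several transcripts through different start sites, splicing or ends, and a de novo assembly made without a genome lists these as isoforms, together with alleles or close gene copies that it could not separate. The IDs here have the form that the Trinity assembler gives, and the files do not pair them with names or functions, so the genes are given by ID and no role is stated for any of them.

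The field leaves formed 5 groups of 3 libraries, stages 1, 2, 3, 4 and M, from naturally growing plants that had no treatment. Each of the harvested plants gave a leaf sample per stage, and the samples with the best RNA went into sequencing, so each library stands for one of several plants. The labels do not say what stage M is. Its place after stage 4, at the end of the course, is assumed here, and words such as return or recovery rest on that order. Hydroponic plants gave 11 libraries without replicates. Of these, 5 were cluster roots, sampled on days 0, 1, 4, 7 and 12, and white root and mature leaf each had a library at 1, 10 and 50 uM phosphate (Pi). Cluster roots are bottlebrush-like tufts of rootlets whose exudates free phosphate bound in soil. The labels do not give the Pi supply of the cluster roots or what marked the day count.

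Depth differed between the field groups, and stages 4 and M had the least. Stage 1 libraries held 4848372 to 6178864 estimated counts, stage 2 libraries 4520030 to 11418655, stage 3 libraries 4859869 to 6044325, stage 4 libraries 1517487 to 3004237 and stage M libraries 2644973 to 4054878. After scaling, 1 CPM stood for 6.40 to 8.11 counts at stage 1 but for 1.02 to 1.80 at stage 4 and 1.49 to 1.78 at stage M. In 17 dipping genes at least 1 library of the lowest stage held fewer than 10 counts, and in 2 genes every library of that stage did. The median SD between replicates of a dipping gene on the log2 scale was 0.21, 0.36, 0.39, 0.80 and 0.40 at stages 1, 2, 3, 4 and M, against 0.13, 0.13, 0.14, 0.29 and 0.22 for the eligible genes. These are bulk samples, in which fewer cells of a type and less RNA per cell cannot be told apart.

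The dipping genes were sorted into 2 forms by whether stage 3 or stage 4 had the lower mean. In 13 genes the lowest mean was at stage 3, with median levels over these genes of 5.13, 3.93, 2.87, 3.90 and 5.32 at stages 1, 2, 3, 4 and M. That stage 4 is above stage 3 in these genes follows from the sorting. The stage 4 level was at least 1 above stage 3 in 8 of the 13 genes, and within 1 of stage M in 5. In the other 18 genes the lowest mean was at stage 4, with medians of 5.27, 5.16, 4.38, 3.13 and 5.09. Stage 3 was still within 1 of stage 1 in 10 of these genes and at least 1 above stage 4 in 14. In some genes of each form the libraries of stages 3 and 4 overlapped, so the lower stage is not resolved there. TRINITY_DN741_c1_g1, sorted to stage 3, had 0.458 to 8.33 CPM at stage 3 and 4.89 to 17.3 at stage 4. TRINITY_DN9780_c0_g1, sorted to stage 4, had 70.7 to 369 CPM at stage 3 and 27.9 to 106 at stage 4.

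**Figure D1:**
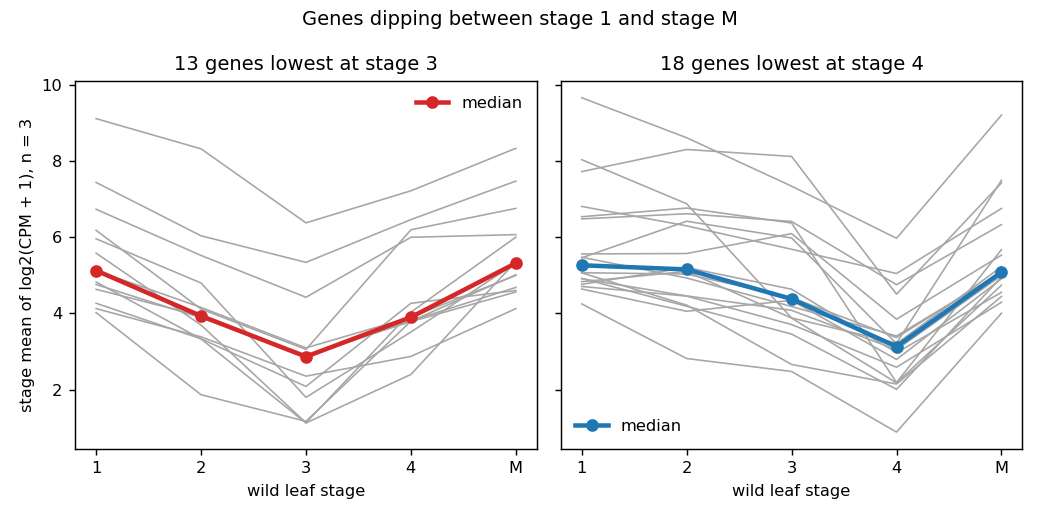
Stage mean (n = 3 libraries) of log2(CPM + 1) of each dipping gene over the field leaf stages (grey lines), with the median over genes (coloured line), for the 13 genes lowest at stage 3 (left) and the 18 lowest at stage 4 (right). The left median falls from 5.13 at stage 1 through 3.93 at stage 2 to 2.87 at stage 3, while the right median is 5.16 at stage 2 and reaches 3.13 at stage 4.

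The depth of the dip is what the rule selected, and it is given here as a description. The difference between the lower shoulder and the lowest stage ran from 1.58 to 4.46 with a median of 2.02, against a median of 0.05 over the eligible genes. The 2 genes just inside the threshold had differences of 1.58 and 1.59, and the 2 just outside had 1.48 and 1.46. All libraries of stages 1 and M lay above all libraries of the lowest stage in 28 of the 31 genes, a separation that 19.3% of the eligible genes had for the lower of their stages 3 and 4. The 3 genes with overlap were all lowest at stage 4, and TRINITY_DN6470_c0_g3 and TRINITY_DN74118_c0_g1 were among them. The former had 7.77, 36.8 and 0 CPM at stage 4 against 27.4, 28.3 and 17.7 at stage 1. The latter had 29.97, 1.67 and 35.2 CPM at stage 4 against 85.4, 13.4 and 78.6 at stage M. In 27 genes both the fall from stage 1 and the rise to stage M had an adjusted p under 0.05 (edgeR's quasi-likelihood test with Benjamini-Hochberg adjustment over all genes tested), where 10.4% of the eligible genes did so.

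Taken one contrast at a time, 20 of the 31 genes were lower at stage 3 than at stage 1 in that test, where 17.5% of all 16668 tested genes were lower and 19.3% higher. Between stages 1 and 4 there were 23 lower genes, where 30.5% of all genes were lower and 25.2% higher. From stage 3 to stage M, 18 were higher and 1, TRINITY_DN257032_c0_g1, was lower, where 22.9% of all genes were higher and 28.8% lower. From stage 4 to stage M, 17 were higher and none lower, where 6.14% of all genes were higher and 10.1% lower. The rule used these contrasts, so the counts lend it no support.

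In the 2 deepest dips of each form, the level fell to a few CPM or less in some libraries and came back to the range of its start or near it. TRINITY_DN3483_c0_g2, the deepest dip of all, had 51.7, 42.9 and 46.9 CPM in replicates 1, 2 and 3 of stage 1, then 8.13, 16.1 and 12.95 at stage 2 and 3.37, 0.634 and 0.458 at stage 3. It was back at 12.1, 30.1 and 9.79 CPM at stage 4 and at 58.1, 66.9 and 65.4 at stage M. Every stage M library of this gene was above every stage 1 library, and no stage 3 library reached the lowest library of another stage. TRINITY_DN27733_c0_g1, the next among the genes lowest at stage 3, had 25.0, 29.8 and 27.5 CPM at stage 1, 7.97, 14.2 and 6.47 at stage 2, 1.02, 1.66 and 0.915 at stage 3, 5.55, 2.79 and 4.89 at stage 4 and 38.8, 41.7 and 40.3 at stage M. It too ended above its start in all libraries, and its stage 3 libraries held 4 to 8 counts each.

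The genes lowest at stage 4 varied more between replicates. TRINITY_DN180_c1_g1 had 266, 225 and 304 CPM at stage 1, 127, 141 and 89.8 at stage 2, 15.3, 11.6 and 14.6 at stage 3, 21.1, 1.67 and 12.7 at stage 4 and 230.5, 119.6 and 212 at stage M. Its stage 3 and stage 4 libraries overlapped, so which of these stages is lowest is not resolved, while both lay far below stages 1, 2 and M. TRINITY_DN344_c0_g1 kept its level through stage 3 and then dropped: it had 109, 50.2 and 143 CPM at stage 1, 107, 75.1 and 158 at stage 2 and 149, 44.1 and 84.2 at stage 3, but 7.77, 0.558 and 5.87 at stage 4. It was at 81.5, 26.9 and 57.2 CPM at stage M, where no library overlapped stage 4. Replicate 2 was the lowest of the 3 in each of the 5 stage groups.

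**Figure D2:**
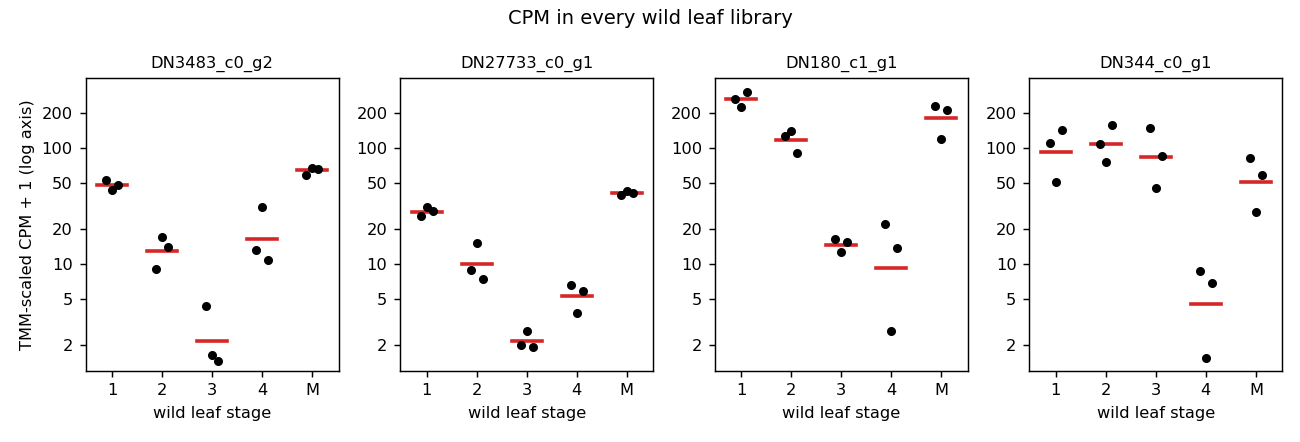
TMM-scaled CPM + 1 (log axis) in each field leaf library (points) with the mean on the log scale (red line, n = 3 libraries per stage) for the 2 deepest dips among genes lowest at stage 3 (left pair) and at stage 4 (right pair). DN344_c0_g1 still had 44.1 to 149 CPM at stage 3, while the other genes had 0.458 to 15.3 there.

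Choosing the genes on some replicates and reading the dip in the remaining one gave a smaller dip than in the chosen data. When the rule was applied without replicate 1 of every stage it chose 46 genes, of which 45 had a difference above 0 in replicate 1, with a median of 1.33, and 21 reached 1.5. Without replicate 2 it chose 46 genes, of which 38 were above 0 in the left-out libraries (median 1.17) and 20 reached 1.5. Without replicate 3 it chose 33 genes, of which 29 were above 0 (median 1.59) and 17 reached 1.5. Among the genes eligible in the same choices, 45.7%, 47.6% and 47.3% were above 0 in the left-out libraries and 0.867%, 0.967% and 1.59% reached 1.5. Of the 31 dipping genes, 24, 27 and 21 were chosen again, so membership depends on single replicates for some genes. The left-out differences describe the newly chosen genes, and were not read for the 31 as a set.

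Stage 2 took no part in the rule, and there the 2 forms of dip had different medians. Stage 2 is set here against stages 1, 3 and 4, which the rule and the sorting into forms used. The values are thus a description and not independent of the choice. The genes lowest at stage 3 had already gone down, by a median of -1.16 on the log2 scale, and all 13 were below their stage 1 level. Those lowest at stage 4 had moved by a median of -0.35, with 11 below and 7 above stage 1. Over the eligible genes the median was -0.01, and 51.4% were below stage 1. In the genes lowest at stage 3, a median of 42.8% of the fall had been reached by stage 2, against 18.0% in those lowest at stage 4.

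Between stages 1 and 2, 9 dipping genes fell, 1 rose and 21 did not pass edgeR's quasi-likelihood test. Of all genes tested, 8.9% passed in either direction, 5.1% upward and 3.8% downward, and of the eligible genes 5.01% passed, 2.47% upward and 2.54% downward. Stage 1 is one of the stages by which the genes were chosen, and a gene chosen for a high stage 1 level is more likely to be lower at any other stage, so this count is not independent of the choice. The falls were 8 of the 13 genes lowest at stage 3 and 1 of the 18 lowest at stage 4. TRINITY_DN21278_c0_g1 went from 15.3, 14.2 and 16.3 CPM at stage 1 to 3.44, 3.58 and 1.37 at stage 2 (log2 fold change -2.43, SE 0.57; edgeR, adjusted p = 0.0155). TRINITY_DN27349_c0_g1 went from 91.2, 76.4 and 53.1 CPM to 18.2, 24.2 and 9.80 (log2 fold change -2.10, SE 0.52; edgeR, adjusted p = 0.0222). In both genes the highest stage 2 library was under the lowest stage 1 library by a wide margin.

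TRINITY_DN257032_c0_g1 was the riser. It had 43.6, 46.8 and 39.2 CPM at stage 1 and 79.1, 87.9 and 88.0 at stage 2 (log2 fold change 0.93, SE 0.20; edgeR, adjusted p = 0.00938), stayed at 66.0, 63.1 and 58.1 at stage 3, dropped to 10.55, 8.92 and 5.87 at stage 4 and had 42.7, 49.7 and 22.7 at stage M. Its course is thus a rise before the dip, with no overlap between stages 1 and 2 or between stage 4 and any other stage. The count of 10 genes was 6 without replicate 2 or 3 of stage 1 or replicate 3 of stage 2 and 4 without replicate 1 of stage 2, and 18 in a fit of the 2 stages alone. The calls of TRINITY_DN21278_c0_g1 and TRINITY_DN27349_c0_g1 were lost without replicate 1 of stage 2 (edgeR, adjusted p = 0.0650 and 0.103) or replicate 3 of stage 2 (0.0627 and 0.0941). The latter was also lost without replicate 1 or 2 of stage 1 (0.0823 and 0.0682) and with no filter on low counts (0.0516), and that of TRINITY_DN257032_c0_g1 without replicate 3 of stage 1 (0.0545).

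From stage 2 to stage 3, 11 dipping genes fell, 20 did not pass and none rose. Of all genes 13.4% passed in either direction, 7.34% upward and 6.05% downward, and of the eligible genes 5.56% passed, 2.88% upward and 2.68% downward. Stage 3 was used by the rule, and 8 of the 11 are genes chosen for their low stage 3. The remaining 3 are among the 18 lowest at stage 4, which had a median log2 fold change of -0.53 at this step. TRINITY_DN180_c1_g1 and TRINITY_DN27733_c0_g1, described above, had the most negative changes, with log2 fold changes of -3.12 (SE 0.42; edgeR, adjusted p = 0.000337) and -2.99 (SE 0.35; edgeR, adjusted p = 0.000104). Their stage 2 and stage 3 libraries did not overlap.

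A level that returns to its start need not be the same transcript. Of the 31 genes, 20 had several isoforms in the data, with at most 5 (64.5% against 72.3% of the eligible genes), and the other 11 had a single one. The rule used only the summed level, not the share of each isoform within its gene. A sum can dip where 1 isoform falls before another rises, so choosing dips can favour genes with changing isoform usage. The count of genes with such a change is thus not independent of the choice. The estimate for an isoform is also uncertain because isoforms of one gene share reads. In a test of isoform usage between stages 1 and M (edgeR's exon usage test applied to isoforms, with an F test per gene), 8 of 19 tested dipping genes passed at an adjusted p under 0.05, or 42.1%. Among all 7477 tested genes 22.1% passed, and among the eligible ones 24.8%. The 8 genes were 4 of 8 tested among those lowest at stage 3 and 4 of 11 among those lowest at stage 4. The isoform with the largest share differed between stages 1 and M in 4 of the 20 genes (20%), against 15.1% of the eligible genes with several isoforms.

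In 3 genes no single isoform met the 1.5 threshold of the dip: one isoform led at stage 1 and another at stage M. Their largest difference in a single isoform was 1.03, 0.92 and 0.71, where the summed gene had 2.10, 3.71 and 2.19. They are TRINITY_DN20138_c0_g1, TRINITY_DN27733_c0_g1 and TRINITY_DN5322_c0_g1, all lowest at stage 3. There the isoform that led at stage 1 had declined in each of them, and the one that led at stage M was below its stage 4 mean.

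TRINITY_DN20138_c0_g1 had the fullest exchange. Its isoform TRINITY_DN20138_c0_g1_i12 had 173, 160.4 and 155 CPM at stage 1, 52.7, 69.7 and 56.9 at stage 2 and 19.1, 6.22 and 9.65 at stage 3, was at 0 in all 3 libraries of stage 4 and had 0, 2.70 and 1.31 at stage M. The isoform TRINITY_DN20138_c0_g1_i10 was at 0 in all 3 libraries of stage 1, had 3.605, 1.196 and 0 CPM at stage 2, 32.2, 31.7 and 14.5 at stage 3, 77.2, 150 and 49.45 at stage 4 and 239, 162 and 138 at stage M. The stage mean of i12 thus falls at each step to stage 4 and stays near 0 at stage M, while that of i10 rises at every step, and their sum has the dip. The share of i12 in the gene was 93.7% over the stage 1 libraries and 0.678% over those of stage M, and that of i10 was 98.8% at stage M (edgeR, adjusted p = 2.68e-13).

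TRINITY_DN5322_c0_g1 was less abundant, and its stage 1 level was spread over several isoforms. Beside the leading isoform described next, TRINITY_DN5322_c0_g1_i10, i6 and i36 held 31.2%, 12.5% and 11.9% of the gene at stage 1. Each of them also had a mean of 0 CPM at stage 4. The isoform TRINITY_DN5322_c0_g1_i19 had 6.95, 6.69 and 10.8 CPM at stage 1, 1.46, 4.82 and 4.92 at stage 2 and 0, 0.313 and 3.08 at stage 3, then 0 in every stage 4 library and 0, 2.24 and 0 at stage M. TRINITY_DN5322_c0_g1_i12 had 0, 0.123 and 0 CPM at stage 1, 0, 0.128 and 0 at stage 2 and 0.510, 0.894 and 0.229 at stage 3, but 17.2, 24.0 and 14.7 at stage 4 and 21.8, 20.6 and 21.4 at stage M. The stage 3 and stage 4 libraries of i12 are far apart, with no overlap. Its share rose from 0.239% to 91.4% between stages 1 and M, while i19 went from 44.1% to 2.98% (edgeR, adjusted p = 2.84e-07).

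TRINITY_DN27733_c0_g1, described above for its depth of dip, passed the same test (edgeR, adjusted p = 1.43e-07). TRINITY_DN27733_c0_g1_i33 had 16.4, 20.7 and 16.6 CPM at stage 1 and 3.69, 10.75 and 3.88 at stage 2, and was at 0 in all 9 libraries of stages 3, 4 and M. TRINITY_DN27733_c0_g1_i22 had 1.53, 1.52 and 0.767 CPM at stage 1 and 0 to 0.636 at stages 2 and 3, then 5.55, 2.79 and 4.89 at stage 4 and 38.8, 38.1 and 36.2 at stage M. The share of i33 went from 65.2% at stage 1 to 0 at stage M, and that of i22 from 4.54% to 94.0%.

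**Figure D3:**
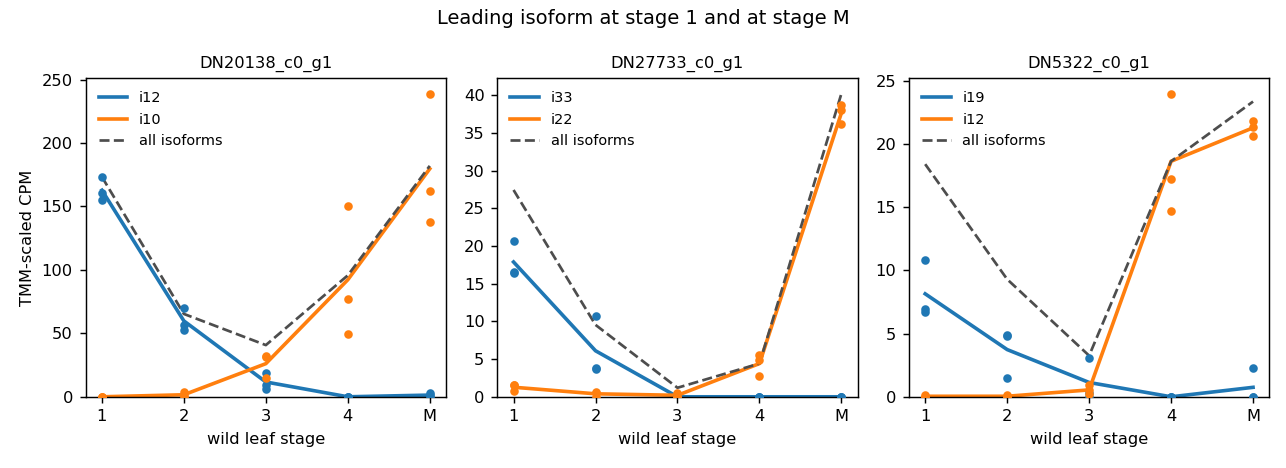
TMM-scaled CPM of the isoform with the largest share at stage 1 (blue) and of the one with the largest share at stage M (orange) in each field leaf library (points; lines join stage means, n = 3), with the mean of the whole gene (dashed). The blue isoforms are at 0 at stage 4 in all 3 genes, and in DN20138_c0_g1 the lines of the means cross between stages 2 and 3.

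The hydroponic libraries, which the rule did not use, held the same isoforms in shares that differed between organs. Such shares were not computed for all 455 eligible genes whose leading isoform differed between stages 1 and M. Whether the pattern is particular to the dipping genes was thus not tested. In the mature leaves, TRINITY_DN20138_c0_g1_i10 made up 99.9% of its gene, TRINITY_DN5322_c0_g1_i12 86.4% and TRINITY_DN27733_c0_g1_i22 80.2%, so the stage M isoform led in each gene. In the white roots the stage 1 isoform led in each, with 95.2% for TRINITY_DN20138_c0_g1_i12, 33.0% for TRINITY_DN5322_c0_g1_i19 (against 29.1% for i12) and 60.4% for TRINITY_DN27733_c0_g1_i33. In the cluster roots it led in 2 of the 3 genes over all days, with 90.1% and 78.2% for the first and the last, while TRINITY_DN5322_c0_g1_i12 led the second with 56.9%.

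Within the cluster roots the stage 1 and stage M isoforms of these genes also changed order over the days. TRINITY_DN20138_c0_g1_i12 had 170, 97.0, 74.0, 44.3 and 1.79 CPM on days 0, 1, 4, 7 and 12, and TRINITY_DN20138_c0_g1_i10 had 0, 0.431, 0.192, 2.45 and 23.2. TRINITY_DN27733_c0_g1_i33 had 16.95, 12.1, 6.42, 3.79 and 0 CPM on these days, and TRINITY_DN27733_c0_g1_i22 had 0.929, 0.663, 0, 1.02 and 4.17. TRINITY_DN5322_c0_g1_i12 had 0.187, 0.667, 0.706, 3.94 and 18.8 CPM, and TRINITY_DN5322_c0_g1_i19 had 0.825, 0.492, 0.4545, 0.0104 and 0.4325. In each case the stage M isoform was highest on day 12, the last day sampled, and above the stage 1 isoform there, while on day 0 the stage 1 isoform was the higher of the pair. In TRINITY_DN20138_c0_g1 and TRINITY_DN27733_c0_g1 the stage 1 isoform was also lowest on day 12. In TRINITY_DN5322_c0_g1 the stage 1 isoform i19 was a minor one, with 0.825 of the gene's 4.30 CPM on day 0. Over all cluster roots it held 7.16% of the gene, less than TRINITY_DN5322_c0_g1_i10 with 21.1% and TRINITY_DN5322_c0_g1_i36 with 8.38%. These are single libraries per day, and isoform usage over days was not tested.

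The mature leaves in hydroponics give a separate look at the recovered level. The mean level over the 3 mature leaf libraries was within 1 of stage M in 20 genes (64.5%, against 80.7% of the eligible genes), more than 1 below in 7 and more than 1 above in 4. The median difference of mature leaf from stage M was -0.35 over the dipping genes and -0.06 over the eligible genes. Field and hydroponic leaves differ in growth conditions as well as in any age difference, which cannot be told apart here.

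The contrast of mature leaf with white root asks whether the dipping genes belong to one organ. It was fitted over 6 libraries with Pi supply as a covariate, so the 3 libraries of a tissue stand in for replicates. In edgeR's quasi-likelihood test, 10 dipping genes were higher in mature leaf, 1 was higher in white root and 20 did not pass. Of all 19418 genes tested 50.9% passed, 22.7% higher in mature leaf and 28.2% higher in white root, and of the eligible genes 45.2% passed, 25.3% higher in mature leaf and 19.9% in white root. The 32.3% of dipping genes higher in leaf is thus near the background, and the 3.23% higher in root is below it. The median log2 fold change was 0.37 over the dipping genes and 0.06 over the eligible ones.

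Of the 31 genes, 3 were under 1 CPM in all white root libraries, a count whose share among the eligible genes was not computed. Of these 3 genes, 1 was under 1 CPM in all 8 root libraries, as were 0.336% of the eligible genes. TRINITY_DN741_c1_g1 had 17.0, 12.4 and 6.95 CPM in mature leaf at 1, 10 and 50 uM Pi and 0, 0.0627 and 0.0696 in white root. It is the gene that was under 1 CPM in the cluster roots too. With 634 counts in the leaves and 2 in the white roots, it was 295-fold higher in leaf, with an exact binomial interval of 81.2 to 2440 at 95% that covers counting error only (edgeR, adjusted p = 0.000427). TRINITY_DN257032_c0_g1, the gene that rose before its dip, had 33.9, 17.5 and 19.1 CPM in mature leaf and 0.447, 0.0627 and 0.348 in white root (log2 fold change 6.29, SE 0.59; edgeR, adjusted p = 0.000284). No library of one of these tissues overlapped the other in either gene, and in cluster root TRINITY_DN257032_c0_g1 had 0 to 2.28 CPM, highest on day 12. The third gene, TRINITY_DN21278_c0_g1, had 0.348 to 0.894 CPM in white root but 19.3 in cluster root on day 12.

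In the other direction, TRINITY_DN6470_c0_g3 had 57.8, 59.75 and 34.96 CPM in mature leaf and 73.5, 84.5 and 123 in white root (log2 fold change -0.90, SE 0.32; edgeR, adjusted p = 0.0492). This call lies at the threshold, and 7 of 12 alternatives lost it (edgeR, adjusted p as high as 0.190), including each fit that left out the white root library at 10 or 50 uM Pi or a mature leaf library. In a fit of all 11 hydroponic libraries 6 dipping genes passed, all higher in mature leaf, and 9847 of the 20388 genes tested passed in either direction.

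For Pi supply, with one slope on log10 Pi shared by mature leaf and white root, 0 of the 31 genes and 0% of all 19418 genes passed edgeR's quasi-likelihood test. The test has 3 residual degrees of freedom, and 8 dipping genes had an unadjusted p under 0.05, as did 1476 of all genes. DESeq2 called 3 dipping genes, TRINITY_DN6729_c1_g3, TRINITY_DN3613_c0_g1 and TRINITY_DN8755_c0_g1, all lower with more Pi, and 348 of all genes. The 4 genes described next were singled out after their values were seen, for large differences between Pi supplies.

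TRINITY_DN344_c0_g1 was high where Pi was scarcest. In mature leaf it had 76.2 CPM at 1 uM Pi (1400 counts) and 0.0611 and 0.0584 at 10 and 50 uM (1 count each), and in white root 302, 37.5 and 39.3. The exact Poisson intervals of the mature leaf values, at 95% and for counting error only, were 72.3 to 80.3, 0.00155 to 0.340 and 0.00148 to 0.325. With a slope of its own in each tissue, the mature leaf slope of this gene passed (edgeR, adjusted p = 0.0400), as did 0.185% of all genes, and the difference between its slopes in leaf and root did not (edgeR, adjusted p = 0.153). The fitted slope rests on 1 count in each of the libraries with more Pi, and is not given.

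TRINITY_DN20849_c0_g1, another gene lowest at stage 4, was likewise highest at 1 uM in both organs. It had 27.9, 0.916 and 2.45 CPM in mature leaf and 77.9, 0 and 1.25 in white root at 1, 10 and 50 uM Pi, where the count of 0 at 10 uM allows up to 0.231 CPM by the upper end of its Poisson interval. Neither of its own slopes passed (edgeR, adjusted p = 0.354 in leaf and 0.609 in root). In the field its replicates differed widely, with 45.7, 16.1 and 33.8 CPM at stage 1, 33.3, 3.52 and 7.55 at stage 3, 16.1, 2.79 and 0 at stage 4 and 80.9, 17.5 and 18.8 at stage M. Its stage 3 libraries thus overlapped every other group, and its highest stage 4 library was just under the lowest of stages 1 and M.

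In white root alone, TRINITY_DN27349_c0_g1 had 12.4 CPM at 1 uM Pi (222 counts) and 0.0627 and 0 at 10 and 50 uM (1 and 0 counts). Its white root slope thus rests on the library at 1 uM against counts at the floor, and is not given. TRINITY_DN27349_c0_g1 was the single gene of all tested whose white root slope passed (edgeR, adjusted p = 0.0385), or 0.00515% of all genes. Its mature leaf values of 79.9, 51.0 and 42.9 CPM went the same way by a smaller factor, and the difference between the slopes did not pass (edgeR, adjusted p = 0.0753). TRINITY_DN10444_c0_g2 went the other way in leaf, with 22.7, 104 and 237 CPM at 1, 10 and 50 uM, but had 393, 137 and 306 in white root. When the white root library at 1 uM was left out its shared slope passed (log2 fold change 1.95 per 10-fold of Pi; edgeR, adjusted p = 0.0395), and no other dipping gene passed in that fit.

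**Figure D4:**
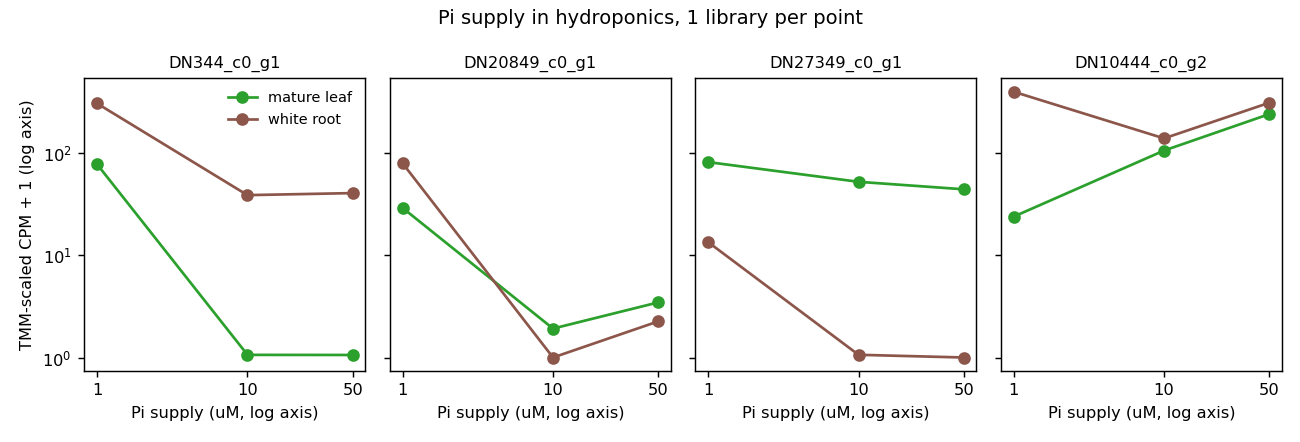
TMM-scaled CPM + 1 (log axis) against Pi supply (uM, log axis) in mature leaf (green) and white root (brown), with 1 library per point and no error, for 4 dipping genes chosen after their values were seen. DN344_c0_g1 and DN20849_c0_g1 are highest at 1 uM in both organs, while DN10444_c0_g2 rises from 22.7 to 237 CPM in leaf.

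No dipping gene passed the test between cluster root and white root. In a fit of the 11 hydroponic libraries by tissue, 0 of 31 had an adjusted p under 0.05 in edgeR's quasi-likelihood test between these roots, where 0.27% of all genes did (0.0147% higher and 0.255% lower in cluster root), as did 0.0959% of the eligible genes, all lower. Unadjusted p was under 0.05 in 3 dipping genes, and DESeq2 called 1, TRINITY_DN74118_c0_g1 (log2 fold change 2.61 higher in cluster root; DESeq2, adjusted p = 0.0141), and 720 of all genes. The cluster root libraries span 12 days of growth, and their changes over days enter the spread of this test.

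Over the days of cluster root growth, dipping genes moved in both directions. Of 25 genes with enough counts to be tested against day in the 5 cluster root libraries, 6 rose, 12 fell and 7 did not pass edgeR's quasi-likelihood test, where 38.3% of all genes passed (18.7% rising, 19.6% falling) and 37.3% of the eligible ones (16.3% rising, 21% falling). Among the genes lowest at stage 3, 1 of 9 rose and 7 fell, with a median slope of -0.18 on the log2 scale per day. Among those lowest at stage 4, 5 of 16 rose and 5 fell, with a median slope of 0.07. The difference between the forms was not tested, since genes are not replicates. The other 6 genes were not tested, because the filter asks for counts in every cluster root library and each of them had fewer than 10 in at least 1, so a gene with a steep change could drop out. Of these, TRINITY_DN9780_c0_g1 had 0.437, 3.11, 5.73, 17.8 and 53.6 CPM on days 0, 1, 4, 7 and 12 and TRINITY_DN12609_c0_g1 had 10.7, 6.52, 3.45, 1.36 and 0.913, both singled out after their values were seen. The former is lowest in the field at stage 4 and was higher on each later day. The latter is lowest at stage 3 and was lower on each. Of the other untested genes lowest at stage 3, TRINITY_DN21278_c0_g1 had 0.998, 0.964, 0.628, 5.61 and 19.3 CPM on these days. TRINITY_DN27349_c0_g1 had 1.31, 1.11, 0.471, 0.240 and 3.08, so both were highest on day 12. TRINITY_DN741_c1_g1, also lowest at stage 3, stayed under 1 CPM. TRINITY_DN257032_c0_g1, lowest at stage 4, was highest on day 12 with 2.28 CPM. With no filter on low counts, 7 dipping genes rose and 12 fell, and 6847 of all genes passed.

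Among the genes that passed, TRINITY_DN7065_c0_g1 had the largest rise per day, with 8.30, 38.2, 83.3, 212 and 419 CPM on days 0, 1, 4, 7 and 12 (log2 change per day 0.39, SE 0.07; edgeR, adjusted p = 0.0104). TRINITY_DN62644_c0_g1 had 23.9, 32.99, 12.6, 87.7 and 322 CPM (log2 change per day 0.30, SE 0.06; edgeR, adjusted p = 0.0147). The former was higher on each later day, while the latter dipped on day 4 and its call was lost without day 12 (edgeR, adjusted p = 0.338) and on a log2(day + 1) scale (0.0829). TRINITY_DN180_c1_g1 fell from 104 through 89.7, 74.9 and 48.9 to 3.54 CPM (log2 change per day -0.35, SE 0.09; edgeR, adjusted p = 0.0265). TRINITY_DN3462_c0_g2 fell from 37.0 through 27.7, 26.3 and 14.4 to 1.90 CPM (log2 change per day -0.31, SE 0.06; edgeR, adjusted p = 0.0115). Both fell at each step and most between days 7 and 12. Without day 12 the slope of TRINITY_DN180_c1_g1 was -0.14, its call was lost without day 1 (edgeR, adjusted p = 0.0559) or with no filter on low counts (0.0516), and on a log2(day + 1) scale the calls of both were lost (0.193 and 0.130).

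**Figure D5:**
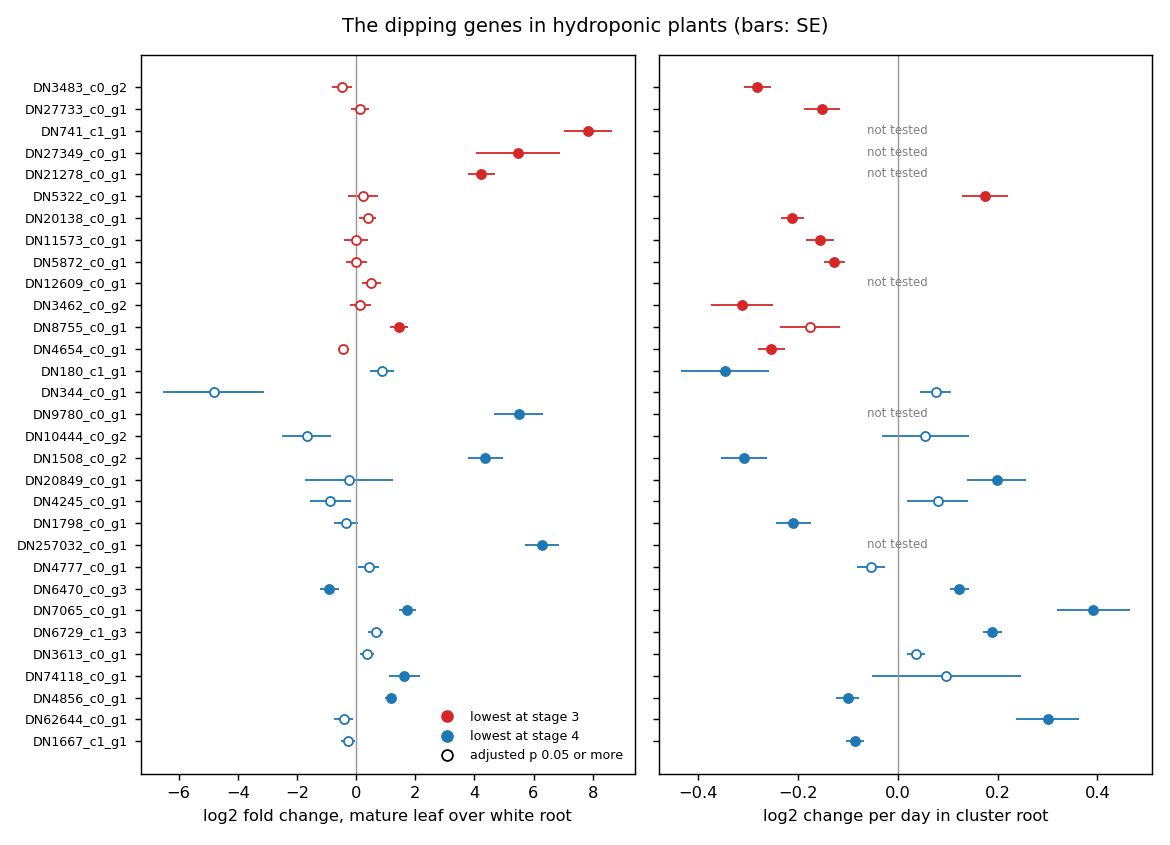
Log2 fold change of mature leaf over white root (left, 6 libraries) and log2 change per day in cluster root (right, 5 libraries) for each of the 31 dipping genes, with SE bars from the edgeR fit, ordered by depth of the dip within the genes lowest at stage 3 (red) and at stage 4 (blue); open points had an adjusted p of 0.05 or more. On the right, 7 of the 9 tested red genes fell and 1 rose, while 5 of the 16 tested blue genes rose and 5 fell.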

How the data were processed

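The authors deposited estimated counts per assembled transcript (total RNA, stranded kit, plant ribosomal RNA removed, per the labels' protocols). Tools named in the submitters' processing notes, without their roles, are Trim Galore 0.6.6, kallisto and DESeq2 1.30.1. How the assembly was made is not given in the sources used here. All 26 libraries were used. Both white root libraries with the least Pi (1 and 10 uM) came to a rounded total of 11508234, although 90.9% of their values differed.

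Isoforms were summed per Trinity gene and rounded to whole counts. Analyses used R 4.3.3 with edgeR 4.0.16, limma 3.58.1 and DESeq2 1.42.0. The filter was filterByExpr (at least 10 counts, 15 in total), the scaling TMM and the main test the robust quasi-likelihood test of edgeR. Benjamini-Hochberg adjustment ran over all genes tested, with 0.05 as threshold. Field leaves were fitted by stage (10 residual degrees of freedom), mature leaf and white root by tissue and log10 Pi (3), all hydroponic libraries by tissue (8) and cluster roots by day (3). Where hydroponic tests use libraries of different Pi or day as replicates, p-values measure the spread about the fitted line in single libraries. A standard error was taken as the size of the log2 fold change divided by the root of the F statistic. Code was tested on simulated data.

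The genes, lists and tests were chosen with earlier results of these data known. Named genes have the 2 deepest dips of each form, or the 2 largest changes in each direction among genes that passed, had an average log2 CPM no lower than 2 and, for groups, showed no overlap of CPM ranges. For isoforms they are the 2 genes with the largest change in the share of one isoform. Exceptions are marked where they stand.

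Whether equal replicate numbers pair samples of different stages was checked from the summed genes. Each of the 30 same-numbered pairs had a positive correlation of its deviations from the stage means (r = 0.159 to 0.584). The pairing was therefore accepted from the data, and a model with replicate number as block was fitted as an alternative. The main field tests above do not use this pairing, and the counts with the block are given below.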

Additional observations from a re-analysis of the deposited data

How the results depend on the processing

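The number of genes the rule finds depends on the scaling. It was 31 in the deposited data with TMM, 12 (4 shared) with CPM by library total, 31 (30 shared) with DESeq2 size factors, 27 with TMM over the field leaves and 28 per Trinity component, and 30 to 46 when replicates were left out. Library totals move the median gene from stage 1 to stage M by -1.41 on the log2 scale, against -0.29 with TMM. In all 5 scalings the 31 genes were lower at their lowest stage than at stages 1 and M. They were chosen for a difference of at least 1.5 in these same libraries, so this count lends the rule no support. With the replicate number as a block, 14 genes passed from stage 1 to 2 (10 without), 14 from stage 2 to 3 (11 without), 8 for isoform usage (8 without) and 28 in both contrasts of the rule (27 without), all within 1.5 times. Leaving out single libraries gave 4 to 14 genes from stage 1 to 2, 8 to 15 from stage 2 to 3, 8 to 12 between mature leaf and white root, 0 to 1 for Pi, 14 to 19 for day, 7 for isoform usage and 22 to 27 in the contrasts of the rule, and the median of stage 2 minus stage 1 ran from -0.87 to -0.62. Counts moved by over 1.5 times for the rule with CPM by library total (12). From stage 1 to 2 they did so in a fit of these stages alone (18). They also did so there without replicate 2 or 3 of stage 1, or replicate 1 or 3 of stage 2 (4 to 6). Other moves were a fit of 11 libraries for mature leaf against white root (6) and DESeq2 for cluster against white root (1). For Pi they were DESeq2 (3), own slopes (1 in leaf, 1 in root) and leaving out the white root library at 1 uM (1). No result changed direction under the alternatives run. Stage 4 has the least depth, so levels under about 1 CPM there rest on 1 or 2 counts.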
